A study of Mus musculus with 1600 samples.

Results

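Nitric oxide and cGMP signalling was followed through 10 genes, chosen by name: Nos3, Cav1, Ddah2, Gucy1a1, Gucy1b1, Prkg1, Pde5a, Pde3a, Npr1 and Npr3. All 10 were found among the 45792 gene identifiers of the deposited tables. Nitric oxide made by the endothelial synthase diffuses into neighbouring contractile cells and binds soluble guanylyl cyclase, a dimer of an alpha and a beta subunit that makes cGMP. cGMP acts through the kinase Prkg1 and is broken down by phosphodiesterases, and a separate family of membrane receptors for natriuretic peptides makes cGMP in answer to hormones from the heart. In the glomerulus the pathway links endothelial cells to the tone of mesangial cells and arterioles, and podocytes are known to answer natriuretic peptides.

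The cells came from glomeruli of 10-week-old Nos3-/- mice on a C57BL/6 background, so every mouse, diabetic or control, carried the genotype label of a deleted endothelial nitric oxide synthase. In the diabetes groups, 3 mice per pool had been given streptozotocin, a toxin of insulin-producing cells, from 8 weeks of age on 5 days at 50 µg per g body weight. In the control groups, 3 littermates per pool had been given the citrate vehicle. Each of 2 experiments filled an array of 800 wells with 1 diabetes and 1 control pool, and a pool is called here by its condition and experiment number, as diabetes replicate 1 or control replicate 2. Mice within a pool cannot be told apart, so the pool is the unit of the tests, with 2 pools per condition. With experiment as a block, p-values rest on how far the difference between conditions varied between the 2 experiments, and on the spread of other genes. The processing section names the classes of wells where a typical gene's own spread did not enter.

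Of 833 wells imaged with 1 cell, 639 were kept, with 128 and 188 in the diabetes pools and 120 and 203 in the control pools. Their median depth was 43577 and 176715 reads in diabetes replicates 1 and 2, against 32222 and 219072 in control replicates 1 and 2, so experiment 2 was the deeper one. The labels call the mice sex-matched, but Xist stood at 1.42 and 1.40 CPM (counts scaled to a library of 1e6) in the diabetes pools, against 356 and 442 CPM in the control pools. The summed level of 4 Y-linked genes was 154 and 160 CPM in the diabetes pools, against 0.279 and 0.605 CPM in the control pools. Diabetes and the sex of the mice therefore cannot be told apart in any comparison below. Wells imaged empty also held RNA, with a median of 2397 and 32994 reads in the diabetes pools and 2212 and 33610 reads in the control pools, and their levels are given as background.

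Clusters of kept wells were named from marker genes, with the 10 members and the other pathway genes left out of the clustering. The classes were endothelial-like (308 wells), mesangial-like (120), podocyte-like (74), immune-like (72), tubular-like (24), smooth muscle or renin cell-like (15) and fibroblast-like (16), and 10 wells led by Mki67 and Top2a stayed unnamed. All 14 endothelial markers were detected in endothelial-like sums of every pool, and all 12 mesangial markers in mesangial-like sums of every pool. Both lists were also detected in full in the empty wells of every pool, so detection does not separate the classes. The same markers named the clusters, so their detection is no separate check of the names. Levels by class are a description and were not tested.

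Both subunits of soluble guanylyl cyclase, Gucy1a1 and Gucy1b1, lie next to each other on the minus strand of chromosome 3, 17737 bases apart, at chr3:82092427-82145789 and chr3:82032006-82074689 (GRCm38). Their promoter windows are shown because, among the 4 classes of over 50 wells, both genes had their highest mean in mesangial-like wells. Each window runs from 250 bases before to 50 bases after a RefSeq start (GRCm38.p6, chr3:82145601-82145900 and chr3:82074662-82074961), and capitals mark a GC box (GGGCGG, either strand) or a CCAAT box (CCAAT, either strand). For Gucy1a1 the window of the outermost of the RefSeq starts is shown.
Gucy1a1: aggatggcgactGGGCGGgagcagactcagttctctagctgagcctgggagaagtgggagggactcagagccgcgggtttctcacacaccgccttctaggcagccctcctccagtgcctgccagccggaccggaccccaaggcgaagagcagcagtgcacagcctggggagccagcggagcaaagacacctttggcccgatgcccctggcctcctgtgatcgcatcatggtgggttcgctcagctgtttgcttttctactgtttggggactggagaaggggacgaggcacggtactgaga
Gucy1b1: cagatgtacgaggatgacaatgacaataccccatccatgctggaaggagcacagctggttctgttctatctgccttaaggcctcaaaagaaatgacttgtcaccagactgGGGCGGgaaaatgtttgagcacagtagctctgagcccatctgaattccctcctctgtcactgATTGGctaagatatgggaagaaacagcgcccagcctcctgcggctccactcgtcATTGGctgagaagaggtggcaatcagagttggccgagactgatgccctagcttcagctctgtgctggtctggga
The GC box stood once in each window. It was present in 35.7% of all 32851 promoter windows of this length. The CCAAT box stood in the Gucy1b1 window alone of the pair, at 2 places, and in 37.4% of all windows. RefSeq windows were found for 8 of the 10 members, not for Nos3 and Pde3a. A match describes the letters and is not a binding site.

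By the mean of summed reads, most members had their highest class along the line of sender and receiver, a description that was not tested. Among the 4 classes of over 50 wells, Nos3, Cav1 and Ddah2 were highest in endothelial-like wells, Gucy1a1, Gucy1b1, Prkg1, Pde5a and Pde3a in mesangial-like wells, and Npr3 was highest in podocyte-like wells. Npr1 was at like levels in endothelial-like, mesangial-like and podocyte-like wells. With wells thinned to equal depth, the shares of Nos3, Cav1, Ddah2, Prkg1, Pde5a and Pde3a in these classes had intervals that overlapped those of empty wells. The highest of the 4 classes was the same for all 10 members when shares of wells at equal depth were used in place of summed reads, and for 9 of 10, Npr1 excepted, when each well was weighted equally or clusters were cut more finely.

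**Figure D1:**
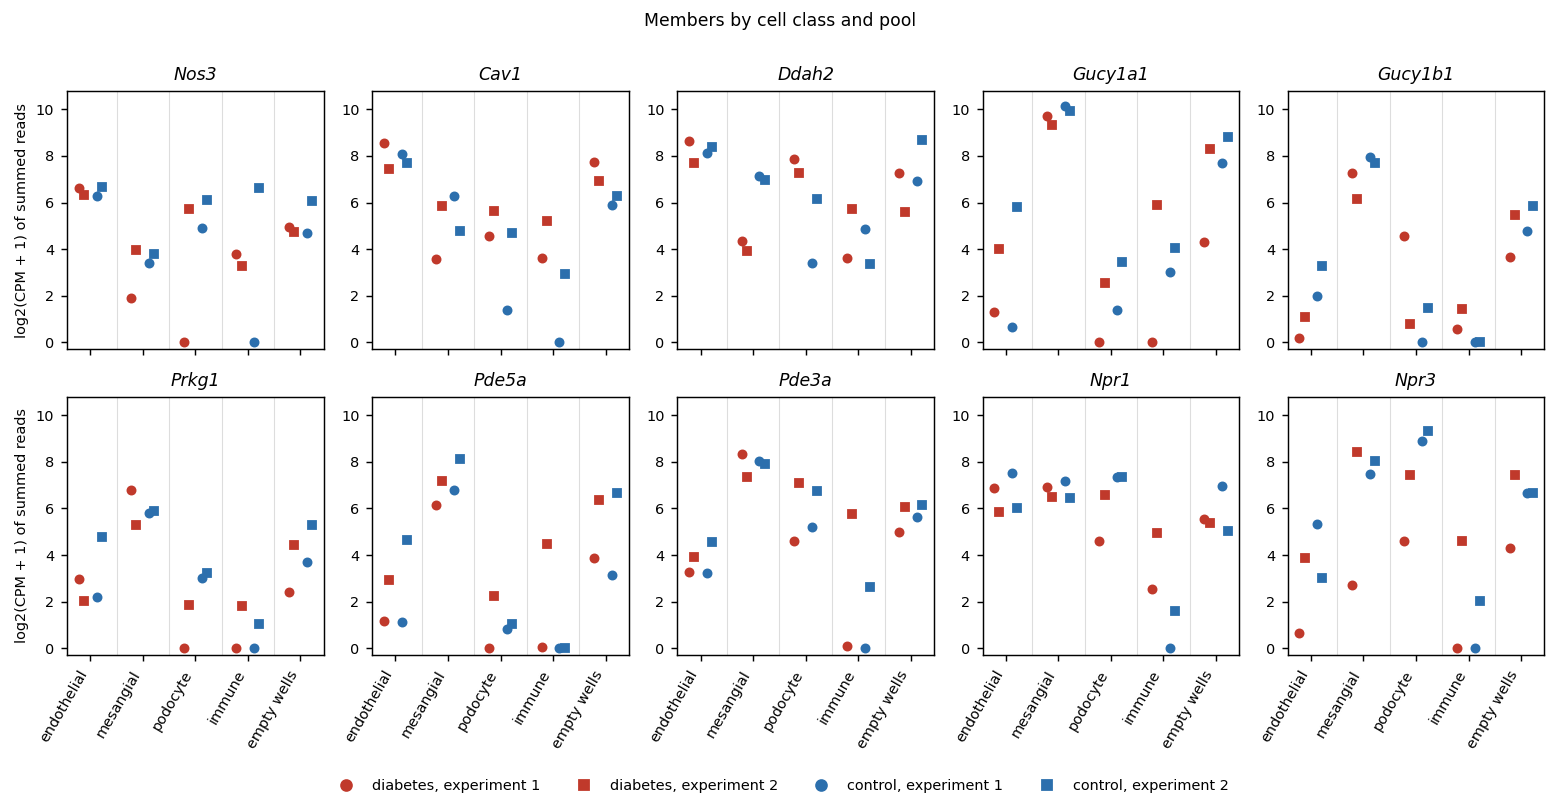
Level of each member as log2(CPM + 1) of reads summed per cell class and pool (red, diabetes pools, left in each class; blue, control pools; circles, experiment 1; squares, experiment 2), with wells imaged empty at the right of each panel. Among the 4 cell classes, Nos3, Cav1 and Ddah2 have their highest means in endothelial-like wells. Ddah2 stands there above its own empty wells in 3 of 4 pools. Gucy1a1 lies between 646 and 1130 CPM in mesangial-like wells of every pool.

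Nos3, the endothelial synthase and the gene named in the genotype, lies at chr5:24364810-24384474. It was counted in every pool: endothelial-like wells had 98.2 and 78.9 CPM in the diabetes pools, against 76.8 and 101 CPM in the control pools. The pools of the conditions overlapped, and all 4 stood above their own empty wells, at 30.4 and 25.6 CPM in diabetes and 25.1 and 65.6 CPM in control. The labels do not give which part of the gene was deleted, and the deposited values are summed over the gene, so reads of Nos3 neither check nor contradict the genotype. The annotation also places exons of Atg9b and of the antisense gene Gm15587 over 294 and 1040 of the 4132 exon bases of Nos3, and no source used here says whether counting used strand.

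The endothelial-like mean of Nos3 was 88.6 ± 12.5 CPM (SD, n = 4 pools). The other named classes had lower means, and the 10 unnamed wells had 91.1 ± 150 CPM, with 315 CPM in the 1 well of control replicate 1. Mesangial-like wells had 2.76 and 14.7 CPM in the diabetes pools and 9.53 and 12.7 CPM in the control pools, below the empty wells of every pool. Podocyte-like wells had 0 and 52.5 CPM in diabetes and 28.8 and 68.3 CPM in control, and in each pool with reads at least 56.1% of these came from 1 well. Single pools of the small classes reached 167 CPM (fibroblast-like) and 132 CPM (tubular-like), and immune-like wells reached 97.8 CPM in control replicate 2. These classes overlapped the endothelial-like range of 76.8 to 101 CPM, and mesangial-like wells did not. In immune-like wells the largest share of 1 well in a pool was 98.9% of Nos3 reads. No read was found in the 15 smooth muscle or renin cell-like wells. At 10000 reads per well, 23.5% of endothelial-like wells (69 of 294, 95% exact interval 18.7 to 28.7) had a read of Nos3, against 45.8% without thinning. The share was 18.9% (14 to 24.6) in the 228 of 588 empty wells that deep, and the intervals overlapped. The summed CPM of endothelial-like wells was above that of empty wells in 4 of 4 pools. Intervals at equal depth, here and below, join wells of all 4 pools and leave out the spread between pools. Whether they overlap is no test. Of endothelial-like wells of experiment 1, 71 of 77 (diabetes) and 39 of 47 (control) were that deep. Empty wells of experiment 1 had medians of 2397 and 2212 reads, so the shares mix the experiments unlike.

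Cav1 encodes the coat protein of caveolae that binds the synthase and holds it inactive. Endothelial-like wells had 371 and 172 CPM of Cav1 in the diabetes pools, against 273 and 204 CPM in the control pools. Both diabetes values lay outside the span of the control values, one above and one below. Empty wells had 213 and 121 CPM in diabetes and 58.2 and 76.3 CPM in control. Smooth muscle or renin cell-like wells, 3 to 5 per pool, came next, with 236 and 106 CPM in diabetes and 257 and 184 CPM in control, a range that overlapped the endothelial one.

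Ddah2 belongs to the family of enzymes that break down methylated arginines, which inhibit the synthases; whether Ddah2 itself does so is debated. Endothelial-like wells had 403 and 207 CPM in the diabetes pools, against 276.5 and 336 CPM in the control pools, and the conditions overlapped. Empty wells had 152 and 47.9 CPM in diabetes and 120 and 407 CPM in control, so endothelial-like wells stood above their own empty wells in 3 of 4 pools. At equal depth 50.7% of endothelial-like wells (44.8 to 56.5) and 40.4% of empty wells (33.9 to 47) had a read of Ddah2, with overlapping intervals. Tubular-like wells were next in order at 234 ± 94.7 CPM (SD over 4 pools), against 306 ± 83.8 CPM in endothelial-like wells, with overlapping ranges. Nos3 and Cav1 were both read in 100 of 308 endothelial-like wells, Nos3 without Cav1 in 41, and Cav1 without Nos3 in 101.

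Within the endothelial-like class the 3 genes varied between its 4 clusters, which differed in pools and depth, so these are values only. In the 68 wells led by Igha, Igkc and Ces2e, Nos3 stood at 2.93 and 4.67 CPM in the diabetes pools, against 199 and 91.7 CPM in the control pools. These values came from 8 and 16 wells against 6 and 38. Nos3 was read in 12.5% and 18.75% of those diabetes wells and in 50% and 76.3% of those control wells, so the experiment 1 values in particular rest on few wells. In the 86 wells led by Icam1, Ly6c1 and Gpihbp1, it was at 141 and 78.1 CPM in diabetes and 11 and 122 CPM in control. In the 63 wells led by Fabp4, Mpzl1 and Msr1, it was at 71.9 and 133 CPM in diabetes and 164 and 3.86 CPM in control. In the 91 wells led by Gm37524, Hecw2 and Sema6d, Nos3 was at 107 and 97.9 CPM in diabetes and 53.3 and 136 CPM in control. The conditions overlapped in each cluster except the one led by Igha. Over the whole endothelial-like class the pools of 31.1% of all genes tested did not overlap, and this share was not computed within clusters. Cav1 in the cluster led by Gm37524 was at 311 and 59.7 CPM in diabetes and 168 and 76 CPM in control, below the cluster led by Igha in each pool.

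Gucy1a1, the alpha subunit of the nitric oxide receptor, was the member with the clearest class pattern. Mesangial-like wells had 846 and 646 CPM in the diabetes pools, against 1130 and 974 CPM in the control pools. Endothelial-like wells had 1.45 and 15.3 CPM in diabetes and 0.608 and 55.9 CPM in control, and podocyte-like wells had 0 and 4.91 CPM in diabetes and 1.60 and 9.90 CPM in control. Endothelial-like wells were below empty wells in every pool, and empty wells held 18.8 and 316 CPM in diabetes and 207 and 452 CPM in control. In control replicate 2, 71.4% of the endothelial-like reads of Gucy1a1 came from 1 well. At equal depth, 84.5% of mesangial-like wells (98 of 116, 76.6 to 90.5) had a read, against 10.2% of endothelial-like wells (7.0 to 14.2) and 53.1% of empty wells (46.4 to 59.7).

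Gucy1b1, the beta subunit that carries the heme which binds nitric oxide, likewise had its highest level among these 4 classes in mesangial-like wells. Mesangial-like wells had 155 and 70.7 CPM in the diabetes pools, against 250 and 207 CPM in the control pools. The value of 155 CPM came from 56 reads in 5 wells, and the largest share of 1 well in a pool was 87.5%. Endothelial-like wells had 0.145 and 1.15 CPM in diabetes and 3.04 and 8.75 CPM in control. At equal depth 35.3% of mesangial-like wells had a read of Gucy1b1 (26.7 to 44.8), against 3.74% of endothelial-like wells (1.88 to 6.60) and 20.2% of empty wells (15.2 to 26). Without thinning, both subunits were read in 63 of 120 mesangial-like wells, the alpha subunit alone in 49, the beta subunit alone in 3 and neither in 5. Shares of this kind follow the level of a gene, and the beta subunit had fewer reads.

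**Figure D2:**
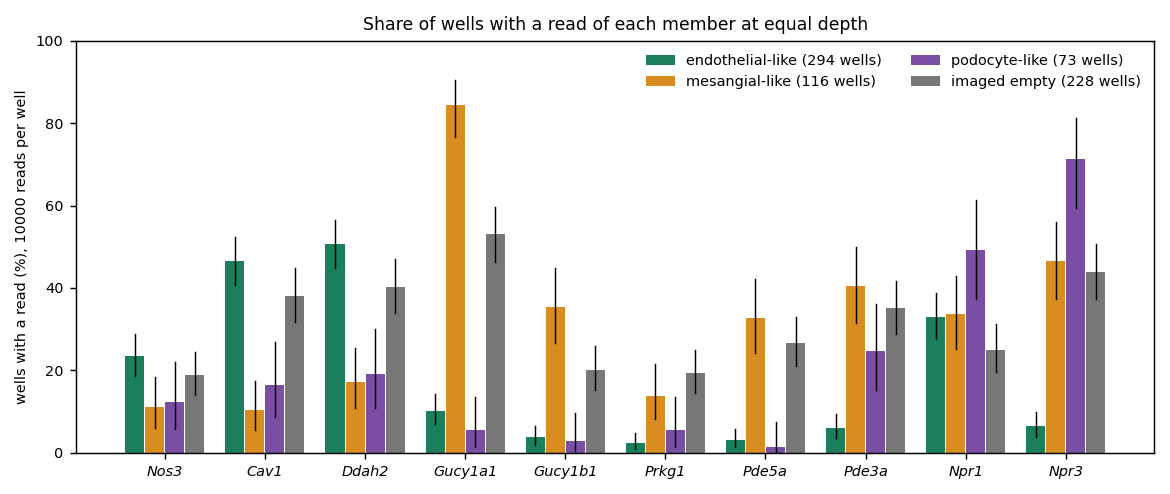
Share of wells with at least 1 read of each member (bars, with lines for exact 95% intervals on numbers of wells). The intervals join wells of all pools and leave out the spread between pools. Only wells of at least 10000 reads were used, each thinned to 10000 reads. These were 294 of 308 endothelial-like, 116 of 120 mesangial-like, 73 of 74 podocyte-like and 228 of 588 empty wells. Median depth of empty wells was 2397 (diabetes) and 2212 (control) reads in experiment 1, against 32994 and 33610 reads in experiment 2. Gucy1a1 was read in 84.5% of mesangial-like wells and Npr3 in 71.2% of podocyte-like wells, and the grey bars give the free RNA of empty wells.

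Other contractile or stromal classes held the cyclase too, in few wells. Smooth muscle or renin cell-like wells had 608 and 1869 CPM of Gucy1a1 in the diabetes pools, from 3 wells each, against 49.7 and 757 CPM in the control pools, from 5 and 4 wells. Fibroblast-like wells averaged 699 ± 834 CPM (SD over 4 pools, 3 to 6 wells each). Gucy1b1 averaged 236 ± 272 CPM in fibroblast-like and 202 ± 342 CPM in smooth muscle or renin cell-like wells, both above the mesangial-like mean of 171 ± 77.3 CPM. For both subunits these ranges overlapped that of mesangial-like wells, so no order among the 3 classes was resolved.

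Prkg1, the cGMP-dependent kinase that relaxes contractile cells, had 110 and 38.6 CPM in mesangial-like wells of the diabetes pools, against 54.2 and 57.7 CPM in the control pools. The diabetes value of 110 CPM rested on 1 well, which held all of its 40 reads. Smooth muscle or renin cell-like wells had 0 and 354 CPM in diabetes and 33.1 and 271 CPM in control, and endothelial-like wells 6.96 and 3.14 CPM in diabetes and 3.65 and 26.2 CPM in control. Summed levels of mesangial-like wells exceeded those of empty wells in all 4 pools, but at equal depth 13.8% of mesangial-like wells and 19.3% of empty wells had a read, so no order is read from the shares.

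Pde5a, the cGMP-specific phosphodiesterase that sildenafil inhibits, had 69.0 and 144 CPM in mesangial-like wells of the diabetes pools, against 111 and 276 CPM in the control pools. The value of 69.0 CPM came from 25 reads in 5 wells, and the largest share of 1 well in a pool was 96%. These sums were above empty wells in 4 of 4 pools. At equal depth 32.8% of mesangial-like wells (24.3 to 42.1) and 26.8% of empty wells (21.1 to 33) had a read of Pde5a, with overlapping intervals. In endothelial-like wells it had 1.29 and 6.56 CPM in diabetes and 1.22 and 24.2 CPM in control, below empty wells in every pool. Pde3a, a phosphodiesterase that cGMP inhibits, had 323 and 161 CPM in mesangial-like wells of the diabetes pools, against 264 and 236 CPM in the control pools. Its sums there were also above empty wells in 4 of 4 pools. The shares at equal depth were 40.5% (31.5 to 50) in mesangial-like and 35.1% (28.9 to 41.7) in empty wells, again with overlapping intervals. Pde3a reached 1315 and 918 CPM in smooth muscle or renin cell-like wells of the diabetes pools, against 306 and 291 CPM in the control pools. One well held 91.2% of those reads in diabetes replicate 1 and 59.3% in diabetes replicate 2, and this class was too small to test.

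Npr1, the receptor of atrial and brain natriuretic peptides that makes cGMP itself, was shared between classes. Endothelial-like wells had 118 and 56.2 CPM in the diabetes pools, against 181 and 63.7 CPM in the control pools. Mesangial-like wells had 121 and 89.4 CPM in diabetes and 142 and 87.1 CPM in control. Podocyte-like wells had 23.1 and 94.1 CPM in diabetes and 164 and 163 CPM in control. The value of 23.1 CPM came from 1 read in 2 wells, and the podocyte-like mean and SD include it. The means over pools were 105 ± 57.8, 110 ± 26.6 and 111 ± 67.2 CPM (SD, n = 4 pools), so these classes did not differ beyond their spread. Immune-like wells were lower, at 9.30 ± 14.1 CPM. At equal depth the share with a read was 49.3% in podocyte-like (37.4 to 61.3), 33.6% in mesangial-like, 33% in endothelial-like and 25% in empty wells.

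Npr3, the clearance receptor that takes up natriuretic peptides without making cGMP, had 174 CPM in podocyte-like wells of diabetes replicate 2, against 477 and 637 CPM in control replicates 1 and 2. Diabetes replicate 1 had 23.1 CPM, from 1 read in 2 wells. Mesangial-like wells had 5.52 and 340 CPM in the diabetes pools, against 175 and 262 CPM in the control pools, and the value of 5.52 CPM came from 2 reads in 5 wells. Endothelial-like wells were below empty wells in every pool, at 0.580 and 13.7 CPM in diabetes and 39.5 and 7.17 CPM in control. Npr1 and Npr3 were both read in 52 of 74 podocyte-like wells and in 52 of 120 mesangial-like wells.

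In endothelial-like wells no difference between diabetes and control was detected for Nos3, Cav1, Ddah2 or Npr1. The edgeR quasi-likelihood test with experiment as a block called 9 of 12589 genes at a Benjamini-Hochberg adjusted p under 0.05, which is 0.0715% of genes tested, and none of the 10 members. The log2 fold of diabetes over control was 0.03 ± 0.50 (SE) for Nos3, 0.13 ± 0.36 for Cav1, -0.05 ± 0.39 for Ddah2 and -0.37 ± 0.47 for Npr1, each with an adjusted p of 0.999. The pools of the conditions did not overlap for 1 member, Gucy1b1, against 31.1% of all genes tested. Of the 10 members, 2 had positive and 8 negative folds with a median of -0.54, and the median of all genes tested was 0.07. The 6 other members were below the empty wells of every pool here, except Prkg1 in 1 pool. Mesangial markers summed to 4160 and 1807 CPM in endothelial-like wells of the diabetes pools and to 9736 and 5445 CPM in those of the control pools, and erythroid markers to 12539 and 5973 CPM in diabetes and 0 and 25.9 CPM in control. Their part in the folds was not tested.

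In mesangial-like wells both cyclase subunits and Ddah2 were lower in each diabetes pool than in each control pool, but none of the 10 members passed the test. The test called 13 of 10125 genes, or 0.128%. Gucy1a1 had a log2 fold of -0.51 ± 0.45 (SE) and an unadjusted p of 0.262 in edgeR, and Gucy1b1 -1.13 ± 0.88 with 0.2. Ddah2 had 19.3 and 14.2 CPM in the diabetes pools, against 138 and 123 CPM in the control pools, a log2 fold of -2.98 ± 1.64 with an unadjusted edgeR p of 0.0686. The value of 19.3 CPM came from 7 reads in 5 wells. These levels of Ddah2 were above the pool's own empty wells in 1 of 4 pools. Npr3 had -1.87 ± 1.06, Pde5a -0.82 ± 0.92, Pde3a -0.13 ± 0.73, Npr1 -0.09 ± 1.14 and Prkg1 0.21 ± 1.70. The adjusted p was 1 for every member.

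The 3 members whose mesangial-like pools did not overlap are read against a background of 32.6% of all genes tested in that class. The median log2 fold was -0.69 over the 10 members and -0.45 over all genes tested, and a member's fold in this class is read beside that shift. Diabetes replicate 1 held 5 mesangial-like wells, and 1 of them gave 86.6% of its Gucy1a1 reads. With the well of most reads left out of each pool the fold of Gucy1a1 was -1.45 and that of Prkg1 turned to -2.82. The smooth muscle and renin markers summed to 2073 and 2371 CPM in mesangial-like wells of the diabetes pools, against 639 and 593 CPM in the control pools, and the fibroblast markers to 5053 and 1579 CPM in diabetes, against 433 and 607 CPM in control. Their part in these folds was not tested.

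**Figure D3:**
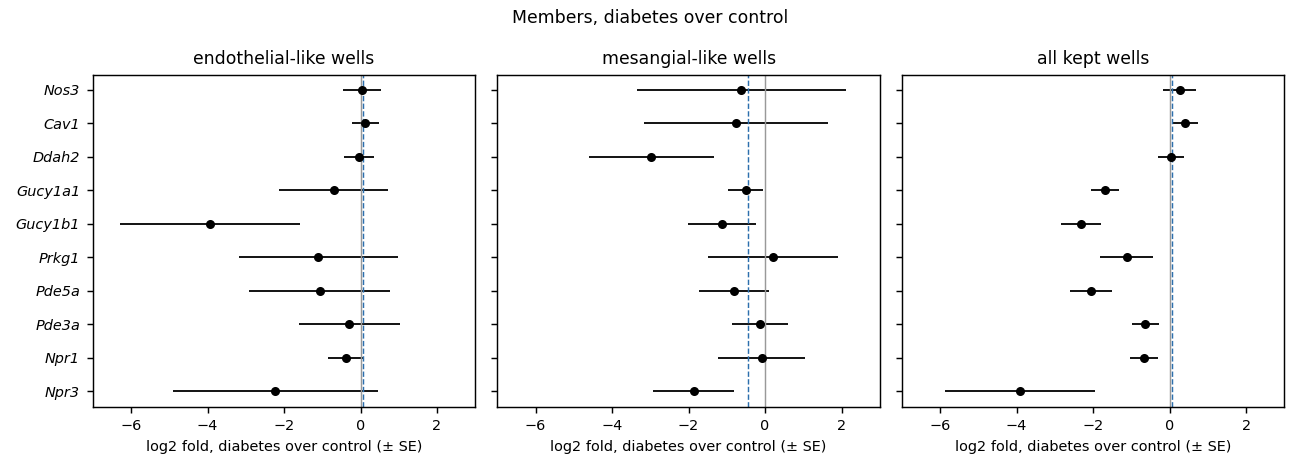
Log2 fold of diabetes over control for each member (points; bars, SE of the edgeR quasi-likelihood fit on 4 pools) in endothelial-like, mesangial-like and all kept wells; the grey line is 0 and the dashed line the median of all genes tested. In all kept wells Gucy1a1, Gucy1b1 and Pde5a lie at -1.69, -2.31 and -2.06, and no member passed the adjusted threshold in any panel.

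Summed over all kept wells, Gucy1a1, Gucy1b1, Npr3, Npr1, Pde3a and Prkg1 were lower in each diabetes pool than in each control pool. Of all genes tested there, 33.5% had pools of the conditions that did not overlap, in either direction. The share of mesangial-like wells was also lower in each diabetes pool. Gucy1a1 had 63.7 and 143 CPM in the diabetes pools, against 289 and 359 CPM in the control pools. Gucy1b1 had 8.70 and 21.8 CPM in the diabetes pools, against 63.4 and 81.3 CPM in the control pools. Npr3 had 0.744 and 78.0 CPM in the diabetes pools, against 189 and 181 CPM in the control pools, and the value of 0.744 CPM came from 5 reads. Pde5a overlapped, with 4.40 and 36.1 CPM in the diabetes pools and 31.1 and 103 CPM in the control pools. The edgeR test called 12 of 15330 genes, or 0.0783%, and none of the 10 members: Gucy1a1 had a log2 fold of -1.69 ± 0.36 (SE, adjusted p = 0.282), Gucy1b1 -2.31 ± 0.53 (adjusted p = 0.338), Pde5a -2.06 ± 0.56 (adjusted p = 0.475) and Npr3 -3.91 ± 1.95 (adjusted p = 0.807). DESeq2 called the first 3 of these, with adjusted p of 0.00216, 0.00617 and 0.0292, among 562 genes. Without diabetes replicate 1 the fold of Npr3 was -1.09.

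For the sending side no difference was detected over all kept wells. These sums also move with the class shares. Endothelial-like wells made up 60.2% and 54.8% of kept wells in the diabetes pools, against 39.2% and 39.9% in the control pools. Immune-like wells made up 21.1% and 18.6% in diabetes, against 4.17% and 2.46% in control. Nos3 had a log2 fold of 0.26 ± 0.44 (SE), Cav1 0.40 ± 0.33 and Ddah2 0.04 ± 0.34, with edgeR adjusted p of 1.00, 0.947 and 1.00. The remaining members had -1.12 ± 0.69 for Prkg1, -0.66 ± 0.36 for Npr1 and -0.64 ± 0.35 for Pde3a. On the TMM-scaled CPM of the fit, 7 of the 10 members had pools of the conditions that did not overlap, against 33.5% of all genes tested. Gucy1a1, Gucy1b1, Npr1, Pde3a, Npr3 and Prkg1 were the lower ones in diabetes. Cav1 was the higher one, and its pools did overlap on the CPM of summed reads.

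In the diabetes pools 3.91% (95% exact, 1.28 to 8.88) and 11.2% (7.05 to 16.6) of kept wells were mesangial-like, against 24.2% (16.8 to 32.8) and 32% (25.7 to 38.9) in the control pools. They held 71.5% and 70.3% of the Gucy1a1 reads of kept wells in the diabetes pools, and 87.9% and 81.5% in the control pools. Podocyte-like wells made up 1.56% and 9.04% of kept wells in the diabetes pools, against 20% and 15.3% in the control pools, and held 20% and 15.6% of Npr3 reads in diabetes, against 66.4% and 54.4% in control. In such sums, fewer cells of a type and less RNA per cell cannot be told apart. The part of the class shares in the summed folds was not tested.

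**Figure D4:**
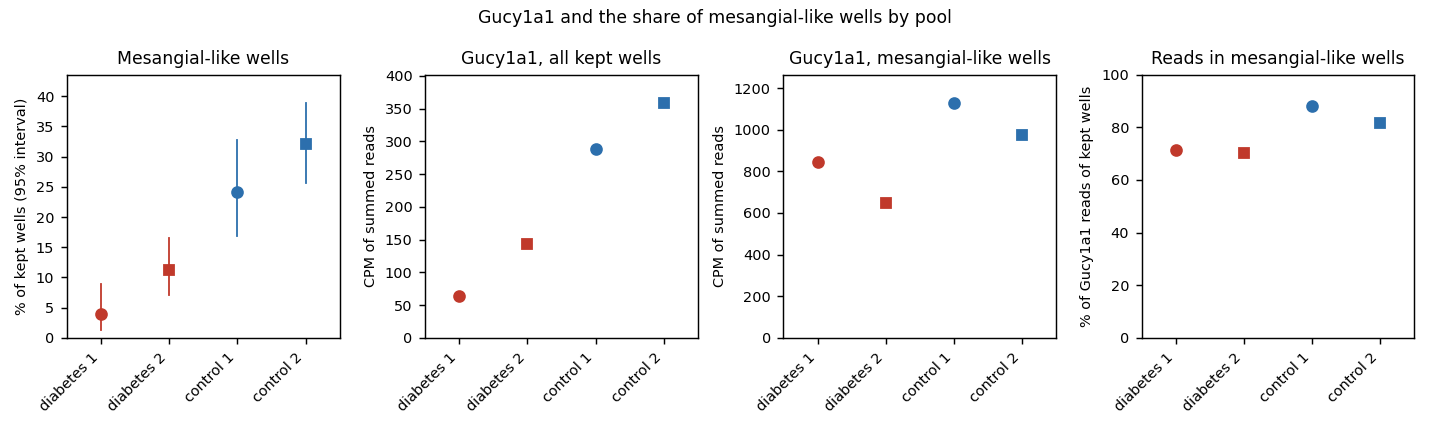
By pool (diabetes pools in red at the left, control pools in blue; circles, experiment 1; squares, experiment 2), the share of mesangial-like wells with exact 95% intervals, the CPM of Gucy1a1 over all kept wells and over mesangial-like wells, and the share of its reads in mesangial-like wells. Over all kept wells Gucy1a1 is at 63.7 and 143 CPM in diabetes and 289 and 359 CPM in control, while within mesangial-like wells it is at 846 and 646 against 1130 and 974 CPM.

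Immune-like wells held little of the pathway, with Nos3 the highest member at a mean of 29.8 CPM over pools. The test there, on 5 wells in each control pool, called 2 of 8267 genes, or 0.0242%, and only 4 members, Nos3, Gucy1a1, Cav1 and Ddah2, had enough reads to be tested, none of them called. Pools did not overlap for 1 of these, Cav1, which was higher in diabetes, against 39.6% of all genes tested. Podocyte-like wells were not tested, because diabetes replicate 1 held 2 of them.

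Of 60 further genes of the pathway, 58 had a row, and none passed the test in endothelial-like (39 tested), mesangial-like (33), immune-like (29) or all kept wells (46). At an unadjusted p under 0.05, edgeR gave 0, 3, 3 and 4 of them. The list's median log2 fold was 0.05 in endothelial-like and -0.20 in mesangial-like wells, against 0.07 and -0.45 over all genes tested. Among partners of the synthase, Hsp90ab1, a chaperone, stood at 740 ± 147 CPM in endothelial-like wells (SD, n = 4 pools). Of the caveolar coat, Cavin2 was at 1207 ± 532 CPM in endothelial-like wells, against 173 ± 148 CPM in mesangial-like wells, and Cavin3 at 262 ± 17.4 against 92.0 ± 83.7 CPM. Of arginine and cofactor metabolism, Qdpr (which recycles tetrahydrobiopterin) averaged 80.8 ± 65.5 CPM in endothelial-like wells, and Ddah1 53.1 ± 20.8 CPM in mesangial-like wells, against 8.61 ± 8.80 CPM in endothelial-like wells.

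On the receiving side, the second alpha subunit of the cyclase, Gucy1a2, had its highest mean among the 4 classes of over 50 wells in mesangial-like wells. It had 22.1 and 123 CPM in mesangial-like wells of the diabetes pools, against 165 and 296 CPM in the control pools, and averaged 1.82 ± 1.92 CPM in endothelial-like wells (SD, n = 4 pools). Rgs2, a substrate of the kinase that dampens G protein signals, had 1538 and 764 CPM in mesangial-like wells of the diabetes pools, against 451 and 367 CPM in the control pools. Itpr1, the calcium release channel, averaged 296 ± 76.6 CPM there. Pde1a was at 147 ± 168 CPM and Pde10a at 29.4 ± 42.1 CPM in mesangial-like wells. Among genes that process natriuretic peptides, Mme, the protease neprilysin, averaged 210 ± 159 CPM in podocyte-like wells, against 2.26 ± 1.89 CPM in endothelial-like wells, and Furin 48.8 ± 12.7 CPM in endothelial-like wells. Npr2, the receptor of C-type natriuretic peptide, averaged 21.9 ± 16.1 CPM there.

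Genes most alike to each member were ranked by Pearson r of log2(CPM + 1) over 20 sums of a class in a pool, among 7423 genes; these sums share libraries and class differences, and no p is given. For Gucy1a1 they were Des (r = 0.95), the muscle intermediate filament desmin and one of the mesangial markers used, Dgkb (0.95) and Myl9 (0.93). For Gucy1b1 they were Hcar1 (0.97), Epha3 (0.95) and Dgkb (0.92). Dgkb also led for Prkg1 (0.88), before Mustn1 (0.86) and Atp1b2 (0.85), and P2rx1 (0.89), Cspg4 (0.87) and Myl9 (0.87) led for Pde5a. Pde3a was most like Atp1b2 (0.84), Mprip (0.81) and Mustn1 (0.78). For Nos3 they were Palmd (0.91), Csgalnact1 (0.89) and Mfap1b (0.87), for Cav1 Sgk1 (0.84) and Gng11 (0.83), and for Ddah2 Gimap5 (0.84), Gne (0.83) and Dock9 (0.82). Npr1 was most like Dstyk (0.90), Sos2 (0.89) and Ptpn14 (0.89), and Npr3 most like Ephb1 (0.84), Hoxc8 (0.83) and Hspa12a (0.83). Between members, Gucy1a1 had r of 0.87 with Gucy1b1, 0.85 with Pde5a and 0.82 with Prkg1, and -0.19 with Nos3.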

How the data were processed

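RNA was measured in 1600 wells of the Fluidigm C1 system, 800 per experiment. The deposited tables hold expected counts, estimated by the authors for each gene in each well, which may be fractions; 74.1% and 79.3% of values above 0 were whole (tolerance 1e-09) in experiments 1 and 2. The tools listed, per the submitters' processing notes and with no role, were featureCounts 1.5.1, BWA 0.7.17-r1188, STAR 2.4.2a and cutadapt 1.11, and the build was mm10. No source used here gives the annotation release. No molecular identifiers were counted, so intervals cover counting error only. Gene names came from GENCODE M21, which matched 45143 of 45792 identifiers; 649 did not. Prmt1 and Pde2a of the pathway list had no matched row.

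Wells with 1 imaged cell, at least 500 genes and at most 30% mitochondrial reads were kept. Levels were scaled to log2(counts per 10000 + 1), and the 2000 most variable genes (scaled within experiment), 15 components, 15 neighbours and Leiden resolution 0.8 gave clusters (scanpy 1.11.5). A cluster was named from at least 3 markers of a type detected in 25% of its wells and at least 2 among its 50 leading genes by fold, limits set with the data at hand. No doublet caller was run, since imaging counted cells. A well counts as having a read at 1 expected count or more. Expected counts were summed per class and pool, rounded, and tested with edgeR 4.0.16 under R 4.3.3 (robust quasi-likelihood, TMM, filterByExpr), experiment as block, where each pool held at least 5 wells; p-values were adjusted by Benjamini-Hochberg over all genes tested. The block is the experiment named in the labels, in which 1 array held both conditions. The median prior degrees of freedom were 7.42 in endothelial-like sums, 5.56 in all kept wells and infinite in mesangial-like and immune-like sums, where a typical gene's own spread does not enter its p. DESeq2 1.42.0 and limma 3.58.1 served as alternatives. The edgeR, DESeq2 and limma fits with the block were run on data simulated from endothelial-like sums only. Fits of other classes, without the block or with a pool left out were not simulated. Members, lists and tests were chosen with earlier results of these data known. The text names all 10 members. Of the pathway list it names genes past the threshold and, per role, the 2 genes of highest mean CPM in endothelial-like or mesangial-like wells. For each member it names the 3 genes of highest r among those with a mean of at least 20 CPM. Of the genes these rules pick, 2 are not reported here.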

Additional observations from a re-analysis of the deposited data

How the results depend on the processing

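Counts of genes past the adjusted threshold moved with the fit. Without the replicate block the count was 0 in endothelial-like, 1 in mesangial-like, 0 in immune-like and 1 in all kept wells. DESeq2 gave 88, 24, 2 and 562 in the same order of wells, and called Gucy1a1, Gucy1b1 and Pde5a over all kept wells. With no filter on low counts the counts were 25 (endothelial-like), 12 (mesangial-like), 6 (immune-like) and 36 (all kept). With no filter on wells they were 0, 19, 4 and 0 in that order. A mitochondrial share of at most 15% gave 5 in endothelial-like, 0 in mesangial-like and 0 in all kept wells. Thinned wells gave 55 in all kept wells. Members among the clustering genes gave 0 in endothelial-like wells. RLE size factors gave 1 in immune-like wells, and limma on mean CPM over wells gave 0 in each of the 4 comparisons. Leaving out 1 pool, without the block, gave 10 to 37 calls in endothelial-like, 1 to 18 in mesangial-like, 0 to 257 in immune-like and 9 to 170 in all kept wells; the causes were not tested. Without diabetes replicate 2, Npr3 was called over all kept wells (log2 fold -7.99, edgeR adjusted p = 8.85e-06); diabetes is then 1 pool with 5 reads of Npr3, and the spread comes from the control pools alone.

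Of 302 refits of the 22 member folds reported, 267 kept direction and call and 31 changed sign, 15 of these with a pool left out. In endothelial-like wells Nos3 became -0.00029 without the replicate block, -0.16 at resolution 1.2 and -0.12 with limma, Cav1 -0.11 with thinned wells and -0.068 with limma, and Ddah2 0.031 without the filter on wells, 0.12 with thinned wells and 0.14 at resolution 1.2. In mesangial-like wells Pde3a became 0.21 at 15% and 0.0011 at resolution 1.2, Prkg1 -0.45 at 15% and -2.82 without the well of most reads, and Npr1 0.32 without the filter on wells and 0.051 at 15%. Over all kept wells Ddah2 became -0.0014 at 15% and -0.040 without the well of most reads. With a pool left out, endothelial-like folds ranged from -0.29 to 0.34 for Nos3, -0.31 to 0.55 for Cav1, -0.44 to 0.29 for Ddah2 and -0.96 to 0.31 for Npr1. Mesangial-like folds ranged from -1.64 to 0.10 for Pde5a, -0.49 to 0.24 for Pde3a, -0.40 to 0.85 for Prkg1, -0.33 to 0.20 for Npr1 and -5.44 to 0.76 for Npr3. Over all kept wells Nos3 ranged from -0.12 to 0.63 and Ddah2 from -0.20 to 0.29. Nos3 in endothelial-like wells averaged 103 CPM with wells weighted equally, against 88.6 CPM in summed reads, the one of 30 refits of class levels that moved by more than the SD over pools. Not run, for too few wells in a pool, were thinned wells for mesangial-like, and thinned wells, 15% and members among the clustering genes for immune-like wells.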
